A study of Xenopus laevis with 3 samples.

Results

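Long-gene cells were a small set of oocyte-like cells of the juvenile *Xenopus laevis* ovary. They combined RNA of the 42S particle genes with a raised share of transcripts from 7 genes, most of them unusually long. A cell was taken when it held between 100 and 8000 genes, at most 1.5% of its unique molecular identifiers (UMIs, counted RNA molecules) from 13 mitochondrial genes, at least 3 UMIs of *42sp43.L* plus *42sp50.L*, and at least 3 UMIs and 8 UMIs per 10000 of *entrep2.S*, *ptprs.S*, *magi2.S*, *vps13b.L*, *bcas3.L*, LOC108714049 and LOC121399196 together. These 7 are called rule genes here. 79 of 19253 cells met the rule, 11 in ovary 1, 18 in ovary 2 and 50 in ovary 3. They were 2.44%, 0.972% and 2.12% of the 42Sp-positive cells of the same ovary, with exact 95% binomial intervals of 1.22 to 4.32%, 0.577 to 1.53% and 1.58 to 2.79%, which cover counting error only.

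The 3 libraries were droplet scRNA-seq of individual, untreated wild-type ovaries at stages NF62 to NF66, when metamorphosis comes to its end, and held 34060121 to 54585110 UMIs each. The labels call the cells germline cells, yet 5701 of the 17147 cells within the gene and mitochondrial limits had no UMI of *ddx4* or *dazl* and fewer than 3 42Sp UMIs. The long-gene cells were compared with the 4583 other 42Sp-positive cells and, within these, with 984 *zp4*-positive cells (at least 2 UMIs of *zp4.L*, an egg coat gene of follicle-stage oocytes), 668 low-UMI cells (under 1500 UMIs and not *zp4*-positive; nurse-like germ cells are known in this ovary for low UMI counts) and 2931 remaining cells.

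Early oocytes of *Xenopus* store 5S RNA and transfer RNA in 42S particles, whose proteins are the products of *42sp43* and *42sp50*. Later in prophase, diplotene chromosomes take on the lampbrush form, in which RNA polymerases are packed along extended loops and nascent transcripts are long. The genome of *X. laevis* is allotetraploid, so many genes exist as L and S homeologs. Among the rule genes, *ptprs* encodes a receptor tyrosine phosphatase, *magi2* a scaffold protein of cell junctions and synapses, and *vps13b* a bridge-like lipid transfer protein of the Golgi. *bcas3* encodes a phagophore-associated protein, and LOC108714049 is annotated as a long noncoding RNA.

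The name long-gene was checked against gene spans, taken as the distance from start to end of a gene in RefSeq on assembly Xenopus_laevis_v10.1. A span was found for 39242 of 44454 named features, which held 94.1% of the UMIs, and the median span was 13.4 kb. *bcas3.L* spanned 603 kb, *vps13b.L* 591 kb, *ptprs.S* 381 kb and *magi2.S* 375 kb, each above the 99th percentile of all genes. LOC108714049 spanned 97.1 kb. LOC121399196, a protein-coding gene, spanned only 14.6 kb, at the 52.5th percentile, so the name does not describe this rule gene. *entrep2.S* had no match by name.

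Rule-gene UMIs per long-gene cell ran from 3 to 145 with a median of 6, and the level ran from 8.02 to 80.5 per 10000 with a median of 18.4. The cells held 769 to 18020 UMIs (median 3999), a median of 2475 genes and a median of 10 42Sp UMIs. Their summed 42Sp level was 18.1, 41.3 and 35.5 UMIs per 10000 in ovaries 1 to 3. It was lower in each ovary than the 30.5, 71.8 and 92.9 of the other 42Sp-positive cells. 18 cells had exactly 3 rule-gene UMIs, the least allowed, and 43 had 6 or more. All 7 rule genes were detected in 9 cells, 5 or more in 34, and 1 alone in 1 cell. The most widely detected rule gene was *entrep2.S*, in 57 of the 79 cells, and the least was LOC121399196, in 33.

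The set is a range cut from a per-cell level and not a discrete cluster. The 5 cells just inside the limit had 8.02 to 8.57 rule-gene UMIs per 10000, and the 5 just outside had 7.30 to 7.89. 12 long-gene cells lay between 8 and 10 per 10000, and 33 other cells with at least 3 rule-gene UMIs lay between 6 and 8. A further 65 42Sp-positive cells reached 8 per 10000 with fewer than 3 rule-gene UMIs and were left out.

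**Figure D1:**
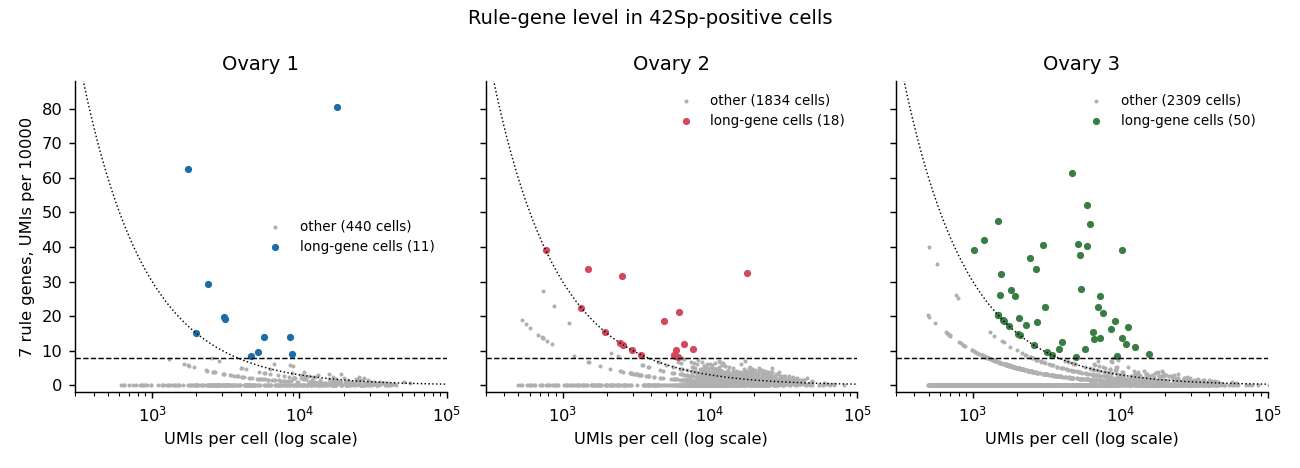
Rule-gene level (UMIs of the 7 rule genes per 10000) against UMIs per cell on a log scale for every 42Sp-positive cell, 1 panel per ovary. The dashed line is the limit of 8 per 10000 and the dotted curve is 3 UMIs of the rule genes. Colored points are the 11, 18 and 50 long-gene cells, which run up to 80.5 per 10000, and gray points are other 42Sp-positive cells.

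1 cell of ovary 1 stood apart. It held 18020 UMIs, 145 of the 215 rule-gene UMIs of that ovary's long-gene cells (67.4%) and 28.4% of all their UMIs, with 0 mitochondrial UMIs and 4 42Sp UMIs. In this cell 30.6% of the UMIs came from genes over 150 kb outside the rule, and 1.03% came from ribosomal protein genes. The strongest cell of ovary 2 held 38.4% of the rule-gene UMIs there, and that of ovary 3 held 7.46%. The shares, the counts of calls and the list counts are also given without the strongest cell of each ovary.

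In summed counts, *entrep2.S* was at 6.14, 2.55 and 4.91 UMIs per 10000 in the long-gene cells of ovaries 1 to 3 and at 0.0641, 0.233 and 0.0989 in the other 42Sp-positive cells. *ptprs.S* was at 5.20, 2.90 and 2.78 against 0.175, 0.261 and 0.149. LOC108714049 was at 3.46, 1.74 and 3.22 against 0.00565, 0.0433 and 0.0241. These values chose the cells, so they are a description, and the groups did not overlap in them; for each rule gene ovary 1 or ovary 3 was above ovary 2 in the long-gene cells, while ovary 2 was highest in the other cells. The means of *vps13b.L*, LOC121399196, *magi2.S* and *bcas3.L* were 4.16 ± 1.98, 3.22 ± 1.05, 3.17 ± 0.986 and 2.80 ± 0.986 per 10000 (SD, n = 3 ovaries), and in the other 42Sp-positive cells the 4 means lay between 0.0900 and 0.153.

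To measure each rule gene in cells it had not chosen, the cells were chosen again with the other 6 rule genes at unchanged limits. Each left-out gene was then higher in the chosen cells than in the other 42Sp-positive cells of the same ovary, in 21 of 21 values. The lowest ratio in any ovary was 6.70 for *bcas3.L*, 6.72 for *ptprs.S*, 9.09 for *vps13b.L*, 10.6 for *entrep2.S*, 11.5 for *magi2.S*, 18.8 for LOC121399196 and 35.2 for LOC108714049. All of these lowest ratios were those of ovary 2. The left-out gene had a UMI in 34.3% (LOC121399196) to 63.9% (*entrep2.S*) of the chosen cells. Chosen sets shared most of their cells, and no test was run on them. The 7 rule genes were set together with earlier results of these data known. A left-out gene was thus likely to be high where the other 6 are, and the 21 values are a description.

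**Figure D2:**
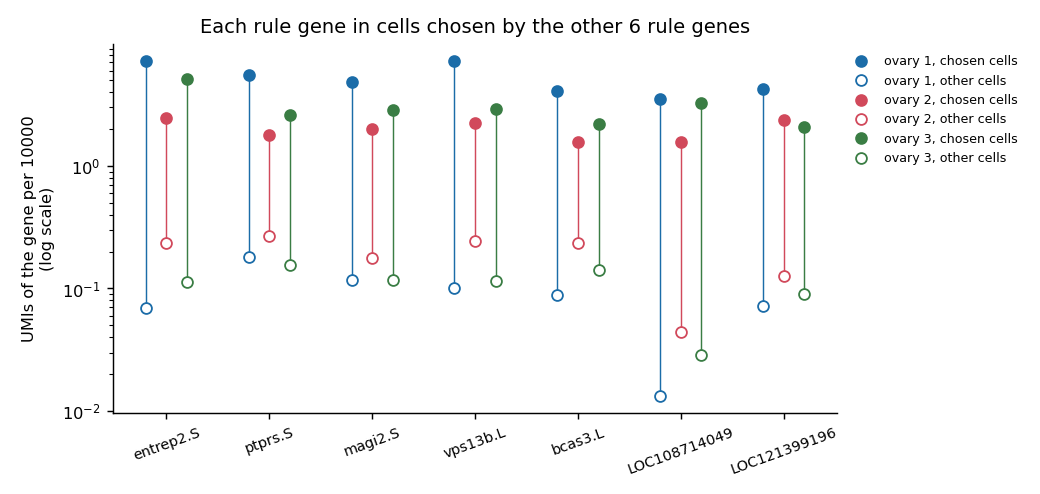
UMIs per 10000 of each rule gene, on a log scale, in cells chosen by the other 6 rule genes (filled circles) and in the other 42Sp-positive cells (open circles), joined by a line for each ovary. In all 21 pairs the filled circle is higher, by at least 6.70 times. The rule genes were set together with earlier results of these data known, so the pairs are a description.

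Homeologs of the rule genes were listed by name for *magi2* and *bcas3* only. *magi2.L* was at 0.472, 1.28 and 0.685 UMIs per 10000 in long-gene cells and at 0.143, 0.254 and 0.125 in the other 42Sp-positive cells. The groups did not overlap, but the fitted log2 change of 1.54 ± 0.52 (SE) missed the threshold in edgeR's quasi-likelihood test (adjusted p = 0.0792). With the ovary as a block it passed (edgeR adjusted p = 0.00614), as it did with DESeq2 (adjusted p = 0.0197). *bcas3.S* had 0 UMIs in the long-gene cells and at most 0.00785 per 10000 elsewhere among 42Sp-positive cells, which is below what these counts can resolve.

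Outside the rule, the long-gene cells carried more RNA of other long genes. Genes over 150 kb, without the rule genes, took 13.7%, 4.47% and 6.86% of the UMIs of long-gene cells in ovaries 1 to 3, and 1.01%, 1.32% and 1.04% in the other 42Sp-positive cells. The means were 8.34% and 1.12%, so the share was 7.43 times as high, and the groups did not overlap. Without the strongest cell of each ovary the mean was 5.91%. The share was 0.874% in *zp4*-positive cells, 1.69% in low-UMI cells and 1.39% in the remaining cells. Protein-coding genes alone gave 7.77% against 1.10%. Long noncoding RNAs took 3.17% of the UMIs in long-gene cells against 1.69% in the other 42Sp-positive cells.

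The share of ribosomal protein genes, which encode the proteins of both ribosome subunits, went the other way. It was 5.71%, 10.3% and 10.6% in the long-gene cells and 23.1%, 19.6% and 22.6% in the other 42Sp-positive cells. *zp4*-positive cells had 20.1% ± 1.62 and low-UMI cells 16.9% ± 4.27 (SD, n = 3). Genes under 5 kb took 11.9% against 19.1%. After each cell was thinned to 1000 UMIs, long-gene cells held a median of 828, 849 and 846 genes, and the other 42Sp-positive cells 758, 783 and 714. With 3 ovaries in each group the smallest two-sided p of an exact permutation test is 0.1. Each of these differences from other 42Sp-positive cells reached that value (adjusted p = 0.104 over 24 tests), so none can pass a threshold of 0.05 in this test, which does not pair the ovaries. Within ovaries the mean difference was -12.9 percentage points for the ribosomal share (SD 4.15) and 7.22 for the long-span share (SD 4.91).

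**Figure D3:**
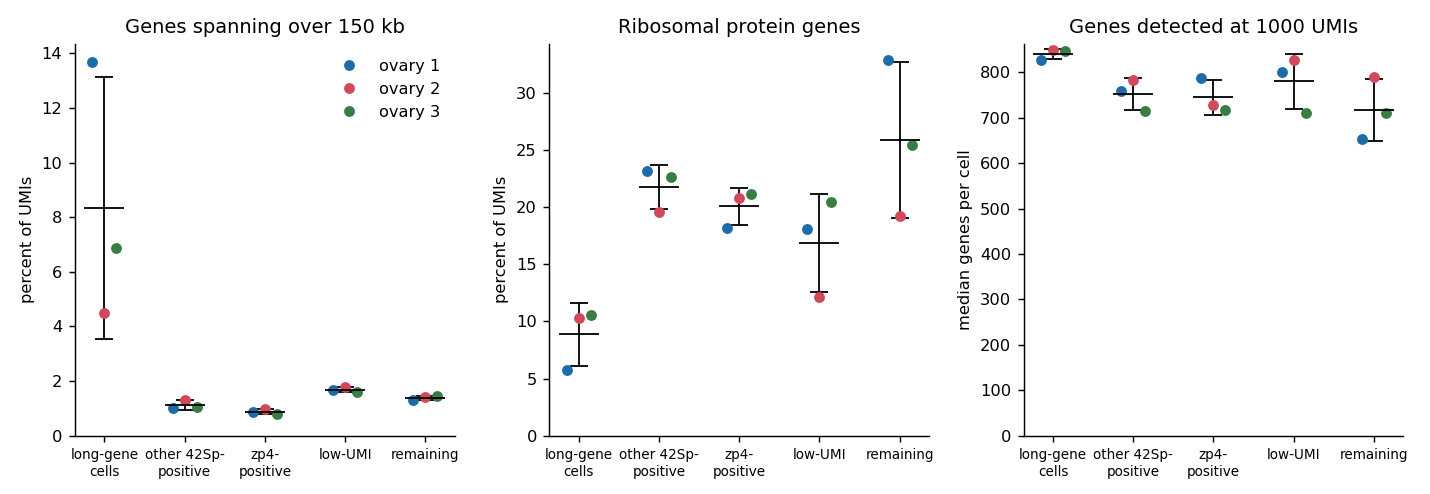
Percent of UMIs from genes over 150 kb outside the rule, percent from ribosomal protein genes, and median genes per cell at 1000 UMIs, for each ovary (points) and group (bar and whiskers, mean ± SD of 3 ovaries). Long-gene cells average 8.34% for long-span genes and 8.86% for ribosomal protein genes, and the 3 ovaries do not overlap with those of the other 42Sp-positive cells in any panel.

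Depth differed between the groups. The median was 3915 to 4679 UMIs per long-gene cell and 2895 to 13972.5 per other 42Sp-positive cell. Among cells of 2000 to 6000 UMIs the long-span share was 6.80% ± 2.93 in long-gene cells and 1.63% ± 0.287 in the others (SD, n = 3), the ribosomal share was 9.36% ± 2.87 against 23.2% ± 2.87, and the genes at 1000 UMIs were 857 ± 10.7 against 748.5 ± 46.4. The directions were thus also seen at matched depth. Mitochondrial genes took 0.0693%, 0.603% and 0.598% of UMIs in long-gene cells against 0.222%, 0.762% and 0.478%, with ovary 1 lowest in both groups.

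Single cells spread widely around these means. The long-span share of a long-gene cell ran from 0.885% to 30.6% with a median of 5.29%, and 74 of 79 cells lay above 2.48%, the 95th percentile of the other 42Sp-positive cells. The ribosomal share ran from 1.03% to 42.5% with a median of 8.32%, against a median of 18.9% in the others. The cell with the highest ribosomal share, in ovary 3, also had the lowest long-span share and exactly 3 rule-gene UMIs. By ovary, the median cell had a long-span share of 5.94%, 3.55% and 6.13%.

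**Figure D4:**
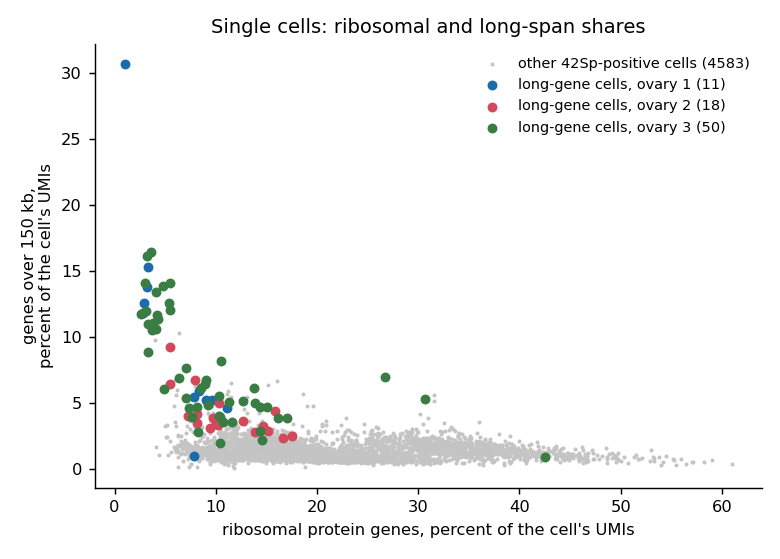
Share of UMIs from genes over 150 kb outside the rule against the share from ribosomal protein genes, 1 point per 42Sp-positive cell. Most long-gene cells (colored by ovary) sit at ribosomal shares near their median of 8.32% and long-span shares near 5.29%, and the single point at 30.6% is the strongest cell of ovary 1. Other cells (gray) have a median long-span share of 1.30%.

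The shares moved stepwise with the rule-gene level. In 42Sp-positive cells with at least 3 rule-gene UMIs, the mean ribosomal share over ovaries was 22.1%, 20.6%, 15.9%, 11.3% and 5.89% for levels of 0 to 2, 2 to 4, 4 to 8, 8 to 16 and above 16 per 10000. The long-span share was 1.06%, 1.65%, 2.84%, 4.21% and 13.2% in the same steps. The last of these was 24.3% in ovary 1, with 5 cells that include the strongest, and 6.53% and 8.84% in ovaries 2 and 3. The ribosomal share in that step was 1.76%, 6.87% and 9.04%. The lowest steps hold deep cells, since 3 UMIs are few per 10000 only where a cell has many. Within the 79 long-gene cells, Spearman's rho between rule-gene level and long-span share was 0.72 (0.78, 0.75 and 0.76 within ovaries 1 to 3) and that with the ribosomal share was -0.57. Cells of an ovary share a library, and the correlations are given as a description.

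Counts were summed over the cells of each group and ovary and fitted with edgeR across 16204 genes outside the rule. 1416 genes (8.74%) passed an adjusted p of 0.05 between long-gene cells and the other 42Sp-positive cells, 935 (5.77%) higher and 481 (2.97%) lower. The cells were chosen by their rule-gene level, so this is the contrast the rule used, and nothing is read from the count. It fell to 0 without ovary 3, which holds 50 of the 79 cells (1960 genes at an unadjusted p under 0.05), and to 0 at a limit of 5 rule-gene UMIs per 10000, with 142 cells (3232 genes unadjusted). With the ovary as a block it was 4145 (25.6%), 1729 higher (10.7%) and 2416 lower (14.9%), and DESeq2 gave 3639. Without the strongest cell of each ovary it was 675 of 15693, 459 higher and 216 lower. Of the 1416 genes, all that could be tested without ovary 3 (1396) kept their direction, and 0 of them were called. The fit that selected them held the same cells of the remaining ovaries. A kept direction was thus favored in advance, and nothing is read from it.

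The genes called higher in long-gene cells were longer than those called lower. 38.6% of the 797 with a span were over 150 kb, as were 0 of the 454 lower genes with a span, against 4.87% of all tested genes. The median span was 111 kb for higher genes, 7.24 kb for lower genes and 22.1 kb for all tested genes. Of genes with a span, long noncoding RNAs were 15.2% of the higher and 3.47% of the tested. These calls come from the contrast the rule used, and most rule genes are long. Long genes that are rare in the other cells can also pass the filter on low counts through the long-gene cells. The spans of the called genes are thus a description.

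The fitted change rose with gene span over the whole range. Its median was -1.14 for genes under 5 kb, -0.88 at 5 to 15 kb, -0.26 at 15 to 50 kb, 0.67 at 50 to 150 kb and 1.97 over 150 kb, on the log2 scale. The median of all tested genes was -0.26. 733 of the 1121 genes over 150 kb outside the rule passed the filter on low counts, which a gene rare in the other cells can pass through the long-gene cells. Of these 308 were called higher, 0 were called lower, and 535 had a higher level in all 3 ovaries. The 2 groups did not overlap, with long-gene cells higher, for 494 of them (67.4%) and for 22.4% of all tested genes. Spearman's rho between span and change was 0.52 across 15051 genes, which are not independent replicates. DESeq2 on all genes with a count, most of them rare, gave a rho of -0.06 and a higher median under 5 kb than over 150 kb, but on the genes of the edgeR fit it gave 0.52. In the tercile of genes with the highest level in the other cells the median ran from -1.39 under 5 kb to 1.00 over 150 kb (82 genes). Against *zp4*-positive cells the medians ran from -1.21 to 2.74. Against low-UMI cells and UMI-matched cells 73 and 89 genes over 150 kb passed the filter, with all of them above 0, so their medians are not given.

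**Figure D5:**
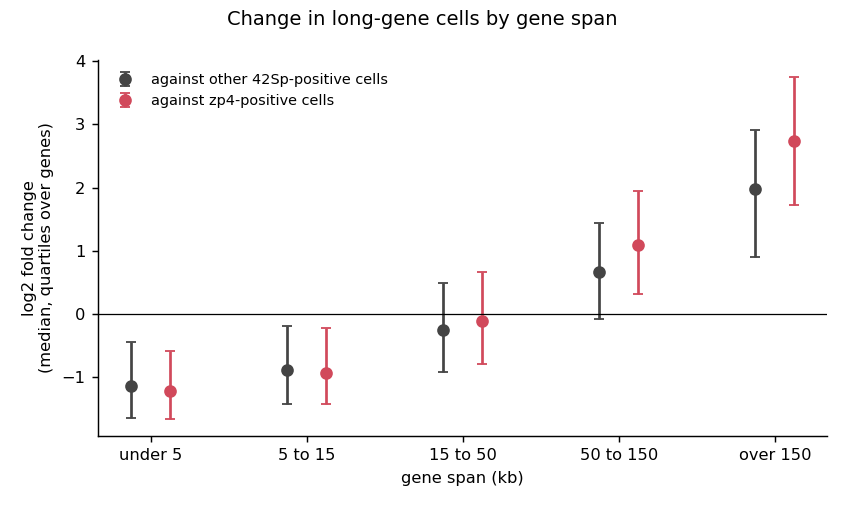
Median log2 fold change in long-gene cells by gene span in kb, with quartiles over genes as whiskers, against all other 42Sp-positive cells and against *zp4*-positive cells. Over 150 kb the medians are 1.97 (733 genes) and 2.74 (619 genes), and under 5 kb they are -1.14 and -1.21.

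The largest rises by the naming rule were mostly in very long genes of varied function. *clstn2.L* and *clstn2.S*, homeologs of a calsyntenin gene for a synaptic membrane protein, rose by 6.76 ± 1.10 and 6.13 ± 0.76 on the log2 scale (SE; edgeR adjusted p = 0.00584 and 0.00263). *clstn2.S* was at 8.35, 1.04 and 4.47 UMIs per 10000 in long-gene cells and at 0.0622, 0.0218 and 0.0440 in the others. *clstn2.L* was at 9.76, 0.580 and 0.362 against 0.0151, 0.0218 and 0.0162, with its high value in ovary 1 alone. Its change was 3.66 without ovary 1 and 4.37 without the strongest cell of each ovary. *grid1.S* encodes a delta-type glutamate receptor. It was at 15.9, 0.580 and 1.01 against 0.0716, 0.0107 and 0.0220 (6.73 ± 1.23), again highest in ovary 1, and its change was 4.74 without that ovary and 3.71 without the strongest cells. The groups did not overlap for any of these genes. Genes this rare in the other cells can pass the filter on low counts through the long-gene cells. A large rise was thus favored in advance, and its size is a description. The same limit holds for *cdh8.L* and *nexmif.L* below, at means of 0.0142 and 0.0211 per 10000 in the other cells.

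The cadherins *cdh8.L* and *cdh4.S*, which hold cells together, changed by 6.09 and 5.08. The teneurin *tenm2.S* and the ephrin ligand *efna5.S*, both cell surface proteins of neuronal wiring, changed by 5.33 and 4.86. *efna5.S* was at 3.78, 1.62 and 2.70 UMIs per 10000 against 0.0301, 0.0662 and 0.0733. *macrod1.L*, an ADP-ribose hydrolase, changed by 5.34. *snd1.S*, a nuclease-domain protein of RNA regulation, changed by 5.02, from 0.189 ± 0.0509 to 9.48 ± 4.54 per 10000 (SD, n = 3). *lrmda.L*, linked to melanocyte differentiation, and *nexmif.L*, a nuclear protein of neurite extension, changed by 5.12 and 5.08. 10 of the 12 largest rises had a span in the table, between 223 and 991 kb. Without the strongest cell of each ovary all 12 were still called, and across every alternative that gave a value their log2 change was between 3.28 and 7.36, though all 12 calls were lost without ovary 3 and at a limit of 5, and that of *cdh8.L* with DESeq2 on UMI-matched cells.

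All 12 also passed against *zp4*-positive cells, where 2571 of 13718 genes were called (18.7%), 1604 higher (11.7%) and 967 lower (7.05%), and *snd1.S* had a change of 5.24 ± 0.61 (edgeR adjusted p = 0.00161). Against low-UMI cells 87 of 1237 genes were called (7.03%), 85 higher (6.87%) and 2 lower (0.162%). *macrod1.L*, *tenm2.S*, *lrmda.L*, *snd1.S* and *efna5.S* were among those tested there and changed by 5.52, 5.63, 5.50, 4.05 and 5.07. These genes were picked as the largest rises of the main fit, which used the same long-gene cells. Genes rare in the low-UMI cells can pass the filter on low counts through the long-gene cells. Rises were thus favored in advance, and their sizes and the split of calls against low-UMI cells are a description. Without ovary 3 both counts went to 0 in edgeR (2083 and 75 genes at an unadjusted p under 0.05), and without ovary 1 the count against low-UMI cells did (350 unadjusted). With the ovary as a block 4473 genes (32.6%) were called against *zp4*-positive cells, 2191 higher (16%) and 2282 lower (16.6%), and 211 (17.1%) against low-UMI cells, 152 higher (12.3%) and 59 lower (4.77%). The 3 comparisons share the same long-gene cells.

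A list of relatives of the rule genes and of genes known in mammals for their length had 51 tested features. Of these 30 were called higher and 0 lower, beside 5.77% higher among all genes and 308 of the 733 tested genes over 150 kb. The median change of the list was 2.38, against -0.26 for all tested genes. Without the strongest cells 22 of 48 were called, beside 459 higher and 216 lower of 15693 genes. The list was chosen for the trait that the rule used, with earlier results of these data known. Its rare members can also pass the filter on low counts through the long-gene cells. Rises were thus favored in advance, and the counts and changes of the list are a description. *macrod2.S*, which spanned 1492 kb, was at 36.1, 6.15 and 13.2 UMIs per 10000 against a mean of 0.407 ± 0.249 and had the highest mean of all genes over 150 kb (log2 change 4.78). *immp2l.L*, a mitochondrial inner membrane peptidase, changed by 4.17, *cadm2.S*, a cell adhesion molecule, by 4.63, and *ptprf.L*, a receptor phosphatase close to *ptprs*, by 3.58. *ptprf.L* was at 7.24, 2.90 and 3.66 against a mean of 0.236.

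Close relatives differed within this list. The relatives *vps13a.L*, *vps13c.L* and *vps13d.L* had changes of -0.18, 0.90 and -0.06 (adjusted p = 0.857, 0.379 and 0.972). *magi1.L*, *magi1.S* and *magi3.L* had 2.03, 1.62 and 1.04 and were not called. Of 27 list members over 150 kb, 18 were called higher, while of the 6 with a shorter span none was. A further 18 members had no known span, and 12 of these were called higher, so the contrast by length does not cover them. *fhit.L* and *fhit.S*, a gene that is very long in mammals but spans 2.51 and 0.676 kb here, had changes of -2.37 and -1.91 (adjusted p = 0.0673 and 0.0803). Not every long gene was higher: the transcription factor homeologs *tcf4.L* and *tcf4.S*, spanning 278 and 298 kb, had -1.08 and -0.25.

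The ribosomal protein genes changed together. Of 144 tested genes with names that start with rps or rpl, 133 were called lower and 0 higher, beside 2.97% lower among all genes, and all 144 had a negative change, with a median of -1.96. *rpl23a.L*, of the large subunit, was at 2.80 ± 0.713 UMIs per 10000 against 9.46 ± 1.42 (SD, n = 3), a change of -2.37. *rpl32.L* fell by 2.36 and *rpl26.S* by 2.32. 121 were called without the strongest cells, beside 216 lower of 15693 genes. With UMI-matched cells 42 of 141 were called lower, with a median of -0.96, beside 63 of all 1586 genes tested. Against low-UMI cells 2 of 140 were called lower, beside 0.162% of all genes. The median change against low-UMI cells was -0.81.

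Nuclear-coded genes of the respiratory chain and ATP synthase had a lower median as well. 35 of 123 were called lower and 0 higher, beside 2.97% lower among all genes, and the median change was -1.48. Without the strongest cells 11 were called, beside 216 lower of 15693 genes. With the ovary as a block 112 were called, where 14.9% of all genes were called lower. *ndufv2.L*, a subunit of complex I, fell by 2.30. With UMI-matched cells 0 of 77 were called by edgeR (3 at an unadjusted p under 0.05), beside 63 lower of 1586 genes. DESeq2 on these cells called 0 of 123, beside 151 lower of 6744 genes. The edgeR median was -0.42. Of the 13 mitochondrially coded genes 0 were called by edgeR or DESeq2 and 0 had an unadjusted p under 0.05, but 7 were called lower with the ovary as a block. Their summed level was 42.4 ± 30.7 UMIs per 10000 against 48.7 ± 27.0 (SD, n = 3).

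Genes of stress and early response held 7 called lower and 0 higher of 22, beside 2.97% lower among all genes. *atf3.S*, *fosl2.L*, *jun.L* and *atf3.L*, which encode transcription factors induced by stress or growth signals, had 0 UMIs in all 79 long-gene cells. Against the level that 3 UMIs over all long-gene cells would give (0.0754 per 10000), *atf3.S* was at least 4.47-fold lower than the 0.337 ± 0.210 of the other cells, *fosl2.L* at least 3.63-fold, *jun.L* at least 2.94-fold and *atf3.L* at least 2.16-fold lower. *junb.L* was at 0.119 ± 0.121 against 1.19 ± 0.761 and fell by 3.45. The heat shock genes *hspa8.L* and *hspa1l.S* were at 9.37 and 16.9 against 14.4 and 24.2 and were not called. With the ovary as a block 16 of 22 were called lower, beside 14.9% of all genes. 3 of 21 were called without the strongest cells, beside 216 lower of 15693 genes. 0 were called without ovary 1 (262 lower of 20421) or ovary 3 (0 of 16073). Where both groups had at least 20 42Sp UMIs per 10000, 0 of 14 were called, beside 171 lower of 11764. Against *zp4*-positive cells 4 of 15 were called lower, beside 7.05% of all genes. *atf3.S*, *fosl2.L* and *jun.L* were at means of 0.0494, 0.0554 and 0.0912 there and not tested.

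The 12 largest falls by the naming rule all had 0 UMIs in long-gene cells, so only bounds can be given. *aldh1a1.L*, a retinoic acid synthesis enzyme, was at 0.546, 0.346 and 0.494 UMIs per 10000 in the other 42Sp-positive cells and at least 6.13-fold lower in long-gene cells. *cavin1.L* and *cav1.S*, which build caveolae of the cell membrane, were at least 5.76-fold and 3.74-fold lower. *krt7.S*, an epithelial keratin, was at least 4.04-fold and *thbs1.S*, a matrix glycoprotein, at least 3.64-fold lower. Besides *atf3.S*, *fosl2.L* and *jun.L*, the others were *rtp3a.2.L*, *rbis.L*, *gtf2a2.L* and *trpv2.L*, at least 3.10-fold, 2.71-fold, 2.49-fold and 2.19-fold lower. Without the strongest cell of each ovary, *aldh1a1.L*, *krt7.S*, *rtp3a.2.L*, *fosl2.L* and *atf3.S* were still called and the other 7 were not. All 12 calls were lost without ovary 3 and at a limit of 5, 8 without ovary 1, and 9 with DESeq2 on UMI-matched cells. Against *zp4*-positive cells only *aldh1a1.L*, *rbis.L* and *gtf2a2.L* were tested, and they passed (edgeR adjusted p = 0.0117, 0.0472 and 0.0244). The others had means of 0.0315 (*trpv2.L*) to 0.106 (*cav1.S*) there, around the 0.0754 that 3 UMIs would give. Their zeros are thus not read as a difference from *zp4*-positive cells.

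Levels of some somatic genes, though not of all, moved with these falls, and their part in the result was not tested. 10 of the 12, all but *rbis.L* and *gtf2a2.L*, were higher in the 5701 cells without germ cell UMIs than in the other 42Sp-positive cells, as with *cavin1.L* at 3.57 ± 1.19 and *atf3.S* at 2.78 ± 0.793. A germ cell UMI (*ddx4* or *dazl*) was found in 77 of 79 long-gene cells, or 100%, 94.4% and 98% in ovaries 1 to 3. It was found in 81.4%, 98.8% and 78.6% of the other 42Sp-positive cells, so ovary 2 went the other way. In *zp4*-positive cells it was found in 95.9%, 100% and 96.5%, and in low-UMI cells in 60%, 89.3% and 59.8%. Stroma markers summed to 0.776 ± 1.11 UMIs per 10000 in long-gene cells and 4.82 ± 3.599 in the others, and follicle cell markers to 0.0537 ± 0.0930 and 1.03 ± 0.836 (SD, n = 3). Of 10 tested stroma features 0 were called. In long-gene cells 8 of 12 follicle marker features were at 0, but only 4 of the 12 passed the filter on low counts, and 0 of these were called. The other follicle features were too rare to be tested, so the zeros are not read as absence. With at least 1 germ cell UMI required in both groups, all 12 falls were still called. With at least 20 42Sp UMIs per 10000 in both groups, 1 was called, 2 were not and the others gave no value. With no mitochondrial limit 3 of the 12 calls were lost. Of marker features for epithelium, endothelium, leukocytes and red blood cells, only 4, 2, 2 and 6 were tested. Of these 1 was called lower (*krt19.L*) and 1 higher (*tek.S*, at 12 UMIs in all), beside 2.97% lower and 5.77% higher among all genes. Endothelium markers summed higher in long-gene cells in each ovary (0.472, 0.812 and 0.886 against 0.187, 0.169 and 0.146 UMIs per 10000). Epithelium markers summed to 1.51 ± 0.517 against 2.47 ± 1.32 (SD, n = 3), and red blood cell markers to 4.63 ± 2.49 against 6.27 ± 4.47. Both were higher in long-gene cells in ovary 2 alone. Leukocyte markers had 7 of 10 features at 0. They summed to 0.197 ± 0.104 UMIs per 10000 in long-gene cells and only 0.406 ± 0.228 in the other 42Sp-positive cells (SD, n = 3), so these zeros are not read as absence. Scrublet called 0 long-gene cells as doublets, but only 0.855%, 0.112% and 0.518% of all cells in ovaries 1 to 3. With 5% expected, doublets were thus not well tested. In ovary 3, 2 long-gene cells were among the 5% highest doublet scores. Without the 5% highest scores 3 of the 12 falls were no longer called.

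Oocyte, mRNA storage and germ plasm genes gave no call in edgeR without the block. Of 16 oocyte genes, 24 mRNA storage genes and 12 germ plasm genes, 0 passed, with 2, 3 and 1 at an unadjusted p under 0.05 and median changes of -0.62, -0.31 and 0.19. With the ovary as a block 2 oocyte genes were higher and 3 lower, 2 mRNA storage genes were higher and 2 lower, and 3 germ plasm genes were higher and 2 lower, where 10.7% of all genes were called higher and 14.9% lower. DESeq2 called 1 oocyte gene lower, 2 mRNA storage genes higher and 0 germ plasm genes, beside 2534 higher and 1105 lower of 24910 genes. The summed oocyte genes were at 31.4 ± 12.4 UMIs per 10000 in long-gene cells and 31.7 ± 14.1 in the others (SD, n = 3). *zp4.L* was at 2.57 ± 0.989 against 2.82 ± 2.03 and *vegt.L*, a vegetal T-box factor, at 2.31 ± 0.368 against 2.39 ± 0.896. *figla.L*, a transcription factor of oocyte genes, was at 0.630, 2.32 and 1.49 against 1.59, 5.74 and 3.25, lower in each ovary but not called (adjusted p = 0.0635). *cpeb1.S*, a regulator of stored mRNA, was at 2.10 ± 0.915 against 0.448 ± 0.187 (adjusted p = 0.0617). Among germ plasm genes, *nanos1.L*, a translational repressor of germ cells, was at 0.802 ± 0.812 against 0.0816 ± 0.0726 (adjusted p = 0.0981).

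Markers of earlier stages were mostly low in both groups and went both ways. *dmc1.L* and *sycp3.L*, of meiotic recombination and the synaptonemal complex, had 1 UMI each in the 79 cells, against 0.0531 ± 0.0200 and 0.0825 ± 0.0192 per 10000 in the other 42Sp-positive cells. *piwil4.S* and *cyp26a1.S*, of germline stem cells and oogonia, had 0 UMIs, but their means of 0.00951 and 0.0525 per 10000 in the other 42Sp-positive cells are below the 0.0754 that 3 UMIs would give, so a difference was not detectable at this depth. The same holds for *dmc1.L*, and *sycp3.L* in the other cells was barely above this level, so neither is read as lower. The meiotic genes *hormad1.S*, *syce2.L* and *rec8.L* were at 0.210 ± 0.0461, 0.429 ± 0.547 and 0.220 ± 0.314 against 0.253 ± 0.0863, 0.401 ± 0.275 and 0.112 ± 0.0720. The cell cycle genes *mki67.S* and *ccnb3.S* were at 1.13 ± 0.114 and 0.566 ± 0.220 against 0.618 ± 0.338 and 0.513 ± 0.446. *mki67.S* was higher in each ovary (1.26, 1.04 and 1.09 against 0.991, 0.331 and 0.532), and the groups did not overlap. Higher levels without overlap were found for 22.4% of all tested genes. *zp4.L* had 2 or more UMIs in 26 long-gene cells and 0 in 40, so the cells spanned both sides of the limit set for *zp4*-positive cells. Of 8 meiosis genes 0 were called by edgeR, with or without the block, or by DESeq2, and 0 had an unadjusted p under 0.05 without the block. Of 27 nuclear protein genes 0 were called by edgeR (8 unadjusted). DESeq2 called 6 of them lower, beside 1105 of 24910 genes. With the ovary as a block 12 were called lower, beside 14.9% of all genes. A further list held genes that the study reports as raised or as lowered in its low-UMI, nurse-like cells. Of its 10 tested genes 1 was called lower and 0 higher, beside 2.97% lower and 5.77% higher among all genes. The call was *tmsb4x.L*, an actin-binding thymosin, which fell by 1.77. *larp6.L*, an RNA-binding protein, was at 2.84 ± 0.721 against 0.485 ± 0.353 without passing the test (adjusted p = 0.0958). *acp5.L* and *not.L* changed by -4.76 and -2.31 and were not called. The study reports *tmsb4x* and *larp6* as raised and *acp5* and *not* as lowered. The list mixes directions, so its median of 0.65 has no expected sign, and a nurse-like profile was not tested.

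Long-gene cells with few and with many rule-gene UMIs were also compared. Summed over the list of long genes, the 36 cells with 3 to 5 rule-gene UMIs were at 63.1, 32.2 and 72.1 UMIs per 10000 in ovaries 1 to 3, and the 43 cells with 6 or more at 233, 73.7 and 99.4. The other 42Sp-positive cells were at 9.35, 12.1 and 8.88. The ribosomal protein sum was 977, 1203 and 1044 per 10000 in the weaker cells and 478, 918 and 1060 in the stronger cells, lower in the stronger cells of ovaries 1 and 2 but not in ovary 3. Both were below the 2311, 1955 and 2260 of the other 42Sp-positive cells.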

How the data were processed

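Ovaries were dissociated with collagenase and TrypLE and loaded on 10x Genomics 3′ chips (about 10000 cells each). The authors counted UMIs per gene and cell with Cell Ranger 8.0.1 and deposited unnormalised counts for called cells. The genome build is not given in the sources used here. The deposited counts do not separate exonic from intronic reads. Features without a name (0.363 to 0.443% of UMIs) were left out.

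The rule-gene limits, members and gene lists were chosen with earlier results of these data known. Counts were summed per ovary and group and tested with edgeR 4.0.16 (TMM, filterByExpr, quasi-likelihood F test, Benjamini-Hochberg adjustment, threshold 0.05) without the 7 rule and the 42Sp genes among the calls. *zp4.L* was also left out of the *zp4* comparison. Sums of the same ovary come from the same animal, and their deviations correlated at 0.197 to 0.522, so the ovary block of the alternatives is a true pairing. The labels name 3 biological replicates, and that these were 3 independent ovaries is taken from the methods of the study. Simulated sums for the main comparison (14437 genes) recovered 42% of 4-fold and 99% of 16-fold changes. The changed genes were drawn only from those well counted in the smallest long-gene sum, with a common dispersion for all genes. The recovery does not apply to rarer genes, such as the 12 largest falls. DESeq2 1.42.0 was an alternative. Named genes were the 12 largest called rises and falls whose sums averaged 20 counts or more, that went 1 way in 3 of 3 ovaries and that carried a gene name rather than a LOC number, plus up to 4 list members of largest change. *fhit*, *tcf4*, *vps13*, *magi1*, *magi3.L*, *ptprf.L*, *junb.L*, *hspa8.L*, *hspa1l.S* and *tek.S* were named outside this rule, after their values were seen. Some genes that this rule names are not reported here. Levels are UMIs per 10000. Scrublet scores came from scanpy 1.11.5. Between libraries 6 to 16 cell barcodes were shared, 0 of them with a long-gene cell.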

Additional observations from a re-analysis of the deposited data

Results flagged for a closer look

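Long-gene RNA was also found in cells outside the comparisons above. Of the 17147 cells within the gene and mitochondrial limits, 4662 were 42Sp-positive and held the 79 long-gene cells. Among those with fewer than 3 42Sp UMIs, 158 met both rule-gene limits, 36, 82 and 40 in ovaries 1 to 3. In ovary 2 the 82 stood beside 18 long-gene cells, where 1852 of 5353 cells were 42Sp-positive. 128 of them had a UMI of *ddx4* or *dazl*. Genes over 150 kb outside the rule took 4.09%, 3.65% and 4.40% of the UMIs of the 158 cells, and ribosomal protein genes 25.8%, 13.5% and 16.1%. In all cells with at least 3 UMIs of *ddx4* or *dazl* and fewer than 3 42Sp UMIs, the long-span share was 1.73%, 2.06% and 2.17%. In each ovary this was above the share of the other 42Sp-positive cells. A further 22 42Sp-positive cells met the rule-gene limits but exceeded 1.5% mitochondrial UMIs, 7 in ovary 2 and 15 in ovary 3. Their long-span shares were 3.07% and 5.67%. 0 of the 337 cells over 8000 genes met the rule-gene limits.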

How the results depend on the processing

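The calls against the other 42Sp-positive cells (1416) depended on most settings. They were 4145 with the ovary as a replicate block, 3639 with DESeq2, 3762 with no filter on low counts, 0 to 3241 when 1 ovary was left out, 0 at a limit of 5 and 2234 at a limit of 12 rule-gene UMIs per 10000, 664 with at least 20 42Sp UMIs per 10000, 247 with UMI-matched cells (406 with DESeq2), 234 with the deeper sum thinned and 675 without the strongest cell of each ovary. The share of higher genes among calls was 66.0% in the main comparison, 41.7% with the block, 30.8% with no filter and 87.6% with thinned sums. Against *zp4*-positive cells (2571) they were 4473 with the block, 4221 with DESeq2, 4525 with no filter and 0 to 2188 without 1 ovary (0 without ovary 3). Against low-UMI cells (87) they were 211, 236 and 445, and 0 to 560 without 1 ovary (0 without ovary 1 or 3). The cause was not tested. The block removed none of the calls of the main comparison, and *magi2.L* was among the many genes it added.

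The difference between the median changes of genes over 150 kb and under 5 kb was 3.12 and turned to -0.79 with DESeq2 over all genes with a count. For the genes that passed the filter of the edgeR fit DESeq2 gave 3.10, so genes with few counts made the turn. DESeq2 put the median of all genes at 1.01, against -0.26. The difference was 2.43 to 3.58 without 1 ovary, 2.45 at a limit of 5, 1.85 with DESeq2 on matched cells and 4.16 with thinned sums, where few long genes pass the count filter. The differences in ribosomal share (-14.7 to -10.6 percentage points without 1 ovary), long-span share (4.49 to 9.25) and genes at 1000 UMIs (68 to 101) kept their direction in every ovary under each choice of cells tried. Settings with 6 or more rule-gene UMIs, without the strongest cells, DESeq2 on matched cells or on the genes of the edgeR fit, and the shares and span bins under cell choices were added after the data were seen. The long-gene cells hold 63509 to 248308 UMIs per ovary, which limits the falls of rare genes.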
